A study of Homo sapiens with 8 samples.

Results

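The 9 genes described here encode the subunits of the AMPA receptors (GRIA1 to GRIA4) and of the kainate receptors (GRIK1 to GRIK5), and all 9 were found by symbol among the 26760 genes of the count table. They were taken as a gene family, and the family was chosen by the counts of GRIA1, which appeared, and of GRIK3, which nearly vanished, in cells that express DNp63 constitutively. The values of the constitutive comparison are therefore given for these genes as a description, with no test. Counts of 8 RNA-seq libraries of LK2, a cell line from a human lung squamous cell carcinoma, fell into 4 groups of 2. In GFP cells, the control, LK2 carried pLEX_306-GFP (replicate 1) or pLEX_307-GFP (replicate 2). Constitutive DNp63 cells carried pLEX_306-DNp63 (replicate 1) or pLEX_307-DNp63 (replicate 2), where DNp63 is the p63 form without the N-terminal transactivation domain. Inducible cells carried pLIX_403-DNp63 and were kept for 6 days without doxycycline (uninduced) or with 2 µg/ml of it (induced). All cells grew in RPMI-1640 with fetal bovine serum, and none is described as LK2 without a vector. No group received doxycycline without the inducible DNp63 vector, so an effect of the drug and an effect of DNp63 cannot be told apart in the induced cells. It is not stated whether the libraries of a group came from separate cultures, so the spread between the libraries of an inducible group may be technical, while that within the GFP and constitutive DNp63 groups includes a difference of vector.

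AMPA and kainate receptors are glutamate-gated cation channels built from 4 subunits each. AMPA receptors carry most fast excitatory transmission in the brain, and kainate receptors mainly modulate it. GRIK1, GRIK2 and GRIK3 subunits can form kainate channels alone, whereas GRIK4 and GRIK5 subunits work only together with them. Auxiliary proteins such as TARPs and cornichons for AMPA receptors and NETO proteins for kainate receptors set the trafficking and gating of the channels. POU3F2 (BRN2) and SOX2, which the title of the series names, are regulators of neural cells.

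The libraries held 2758158 to 10372248 counts, and 14137 to 15720 genes had at least 1 count. Induced replicate 1, the second deepest library with 8169745 counts, had the fewest genes with a count, 14137. TP63 levels are given as CPM, a gene's counts relative to the scaled library size. They were 0.739 and 1.91 in the GFP libraries, 12.7 and 14.8 in the uninduced, 412 and 422 in the induced, and 1850.1 and 3816 in the constitutive DNp63 libraries. Of 10 squamous markers, 9 had counts and KRT14 had none in any library. Without SOX2, which makes up most of the sum outside the constitutive DNp63 libraries and is lower there, the squamous markers summed to 70.5 and 86.5 CPM with GFP, 46.1 and 47.1 CPM uninduced, 1238 and 1601 CPM with constitutive DNp63 and 145 and 158 CPM induced. With constitutive DNp63, 7 of the 9 tested rose and SOX2 fell, and after induction KRT6A, TRIM29 and CALML3 rose. Markers of neurons and neuroendocrine cells, 13 of 13 with counts, summed without MAP2, the most abundant, to 187 to 206 CPM in the GFP and uninduced (control) libraries, 106 and 126 CPM with constitutive DNp63 and 149 and 178 CPM induced. MAP2 itself was at 291 and 139 CPM with constitutive DNp63 and 120 to 168 CPM in the control libraries. With MAP2 included, the sums were 397 and 266 CPM with constitutive DNp63, on both sides of the 316 to 374 CPM of the control libraries, and 302 and 267 CPM induced. The synaptic genes SYT1 (−1.70 ± 0.22, adjusted p = 0.00115) and SNAP25 (−1.84 ± 0.49, 0.044) and the neuroendocrine factor INSM1 (−1.35 ± 0.37, 0.0486), log2 fold changes by edgeR, fell with constitutive DNp63. There GRIK3 was low too, and 3.99% of all tested genes were called lower. Of the 4 tested markers not called there, NCAM1 (0.65 ± 0.86, 0.723), MAP2 (0.46 ± 0.29, 0.389) and ENO2 (0.26 ± 0.30, 0.671) had positive values and CHGB a negative one (−2.09 ± 1.17, 0.327). After induction none of the 7 tested was called (SYT1 had −0.83 ± 0.21, 0.226). Of 9 glial markers GFAP, OLIG2 and S100B were at 0 everywhere, and the list summed to 38.2 to 48.9 CPM in the control libraries, 60.3 and 63.7 CPM with constitutive DNp63 and 38.2 and 38.8 CPM induced. Fibroblast markers (6, with COL3A1 and DCN at 0) summed to 8.28 to 30.5 CPM and immune and endothelial markers (8, with CD3E, PECAM1 and CDH5 at 0) to 1.98 to 5.43 CPM over all libraries. The part of these markers in the results below was not tested.

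The regions before the starts of GRIA1 and GRIK3 are shown first, since the data turn on these 2 genes. RefSeq promoter windows, the 250 bases before a RefSeq start on GRCh38.p14, were matched for 7 of the 9 genes (14 windows). Of these windows 7 held no annotated exon of their gene, and among those only the windows of GRIA1 and GRIK3 are printed. The printed window of GRIA1 lies at chr5:153491922-153492171 on the + strand. The window before the other RefSeq start of GRIA1 lies further upstream, at chr5:153490420-153490669. It overlapped an annotated exon over 184 of its 250 bases and is not printed. The window of GRIK3 lies at chr1:37034516-37034765 on the - strand. Capitals mark CATG, the core of many sites bound by the p53 family, to which p63 belongs; it reads the same on both strands.
GRIA1: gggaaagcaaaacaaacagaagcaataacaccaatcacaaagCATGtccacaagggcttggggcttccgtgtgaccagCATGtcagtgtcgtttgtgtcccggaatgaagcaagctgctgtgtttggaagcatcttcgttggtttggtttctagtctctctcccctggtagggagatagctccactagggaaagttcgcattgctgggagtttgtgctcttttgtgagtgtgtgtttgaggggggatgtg
GRIK3: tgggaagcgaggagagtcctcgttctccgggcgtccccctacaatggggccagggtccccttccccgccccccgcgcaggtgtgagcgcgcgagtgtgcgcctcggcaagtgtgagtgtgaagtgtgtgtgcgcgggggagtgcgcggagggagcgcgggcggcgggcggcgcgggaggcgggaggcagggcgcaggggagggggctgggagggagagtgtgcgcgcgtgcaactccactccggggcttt

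The printed GRIA1 window held CATG 2 times and the GRIK3 window 0 times, and 47.6% of 35116 RefSeq windows of that length held it at least once. The spaced pair CATGNNNNNNCATG was in neither window and in 0.296% of all windows. The looser pair CNNGNNNNNNCNNG, also the same on both strands, was found 2 times in the GRIK3 window and 0 times in the printed GRIA1 window, and in 68.6% of all windows. The GRIA1 window that is not printed held CATG 1 time and the looser pair 1 time. The GRIK3 window was 73.6% G and C, the printed GRIA1 window 49.6% and the other GRIA1 window 60.0%, against a median of 58.0% (quartiles 46.4% and 68.0%). These are matches of letters in short windows before RefSeq starts and do not show binding.

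Among the AMPA receptor genes GRIA1, a subunit that can form channels by itself, was counted in quantity only with constitutive DNp63. It had 216 and 151 counts in the 2 constitutive DNp63 libraries (61.7 and 29.3 CPM), 0 and 0 counts with GFP, 1 and 1 count uninduced (0.201 and 0.0972 CPM), and 0 and 5 counts induced (0 and 0.984 CPM). Both constitutive DNp63 libraries thus lay above all 6 others. The mean was 45.5 ± 22.9 CPM (SD, n = 2) with constitutive DNp63, and replicate 1 was 2.11 times as high as replicate 2 (95% exact counting interval 1.70 to 2.61). Of the 9 squamous markers other than SOX2, 4 were higher in replicate 1, among them KRT5 (398 and 18.8 CPM), and 4 in replicate 2, among them DSG3 (35.4 and 79.9 CPM), as was TP63. In bulk RNA, more cells that express a gene and more of its RNA per cell cannot be told apart. Setting the GFP libraries together at a floor of 3 counts, GRIA1 was 105.0-fold higher with constitutive DNp63. The exact 95% counting interval of the ratio, from the 0 GFP counts, began at 85.0. In single GFP libraries 0 counts allow up to 1.11 and 0.635 CPM at 3 counts, and such floors and intervals cover counting error only. The constitutive groups did not overlap for GRIA1, as for 22.4% of the 12303 tested genes in that direction, a comparison from which nothing is read because it chose the gene.

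In the induced cells GRIA1 was not detectably different from the uninduced cells at this depth. The 5 counts of induced replicate 2 and 0 of replicate 1 stood against 2 uninduced counts, a ratio of 2.89 with a 95% counting interval of 0.474 to 30.4. No test is given, since GRIA1 passed the filter on low counts only through the constitutive DNp63 group that chose it. Between the DNp63 groups the CPM of GRIA1 was 112 times as high in constitutive as in induced cells (47.5 to 346), while TP63 averaged 2833 ± 1389.9 CPM and 417 ± 6.89 CPM. This last comparison uses the libraries that chose the gene and is a description.

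**Figure D1:**
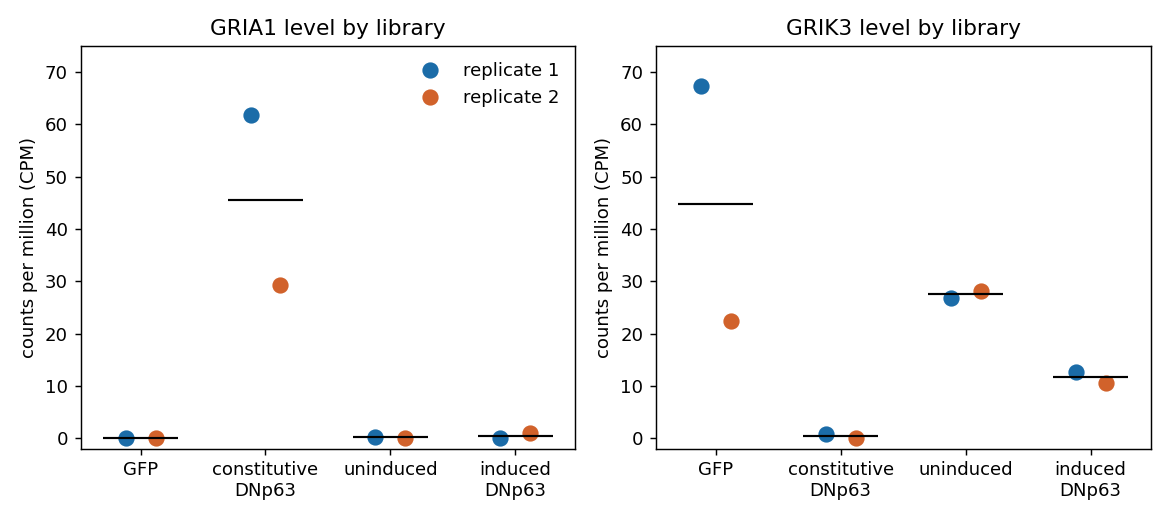
Level of GRIA1 (left) and GRIK3 (right) in CPM for each of the 8 libraries, by group; points are libraries, coloured by replicate number, and horizontal lines are group means of 2. GRIA1 stands at 61.7 and 29.3 CPM in constitutive DNp63 cells and below 1 CPM elsewhere, and GRIK3 stands below 1 CPM in those cells and between 10.6 and 67.2 CPM elsewhere.

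The other AMPA receptor genes were barely counted in any group. GRIA2, whose edited transcript makes the channel nearly impermeable to calcium, had 1 and 2 counts with constitutive DNp63, 1 in induced replicate 2 and 0 in the other 5 libraries. GRIA4 had 1 count in all, in induced replicate 2. GRIA3 had 0 counts in the 8 libraries together, which allows up to 0.0674 CPM at 3 counts. At these numbers no difference between groups was detectable.

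Among the kainate receptor genes GRIK3 carried nearly all counts in the control cells. It had 182 and 106 counts with GFP (67.2 and 22.4 CPM), 133 and 290 uninduced (26.8 and 28.2 CPM), 103 and 54 induced (12.7 and 10.6 CPM), and 3 and 0 with constitutive DNp63 (0.857 and 0 CPM). The order of the group means was GFP, 44.8 ± 31.7 CPM (SD, n = 2), uninduced, 27.5 ± 1.01 CPM, induced, 11.7 ± 1.48 CPM, and constitutive DNp63, 0.429 ± 0.606 CPM. The first neighbours in that order overlap, since the uninduced libraries lie between the GFP libraries, and no other neighbours do. Uninduced against GFP gave a ratio of 0.715 (0.614 to 0.834, counting error only), a description, in a comparison where 0.00813% of tested genes were called, all lower. The GFP libraries differed from each other by more than counting error, with replicate 1 at 2.996 times the level of replicate 2 (2.34 to 3.84), and this spread enters every comparison with GFP. Constitutive DNp63 against GFP gave a ratio of summed counts of 0.00894 (95% counting interval 0.00183 to 0.0264). The groups did not overlap, as for 22% of tested genes in that direction, again with nothing read from it because the gene was chosen there. In constitutive DNp63 replicate 2, 0 counts allow up to 0.582 CPM. Against induced cells the constitutive DNp63 cells had a ratio of 0.0291 (0.00594 to 0.0866), also as a description.

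The choice rested on the constitutive DNp63 cells, but it was made with earlier results of these data known. The test of the induced comparison is therefore not fully independent of the choice. There GRIK3 was lower in both induced libraries than in both uninduced ones, without passing the test. The groups did not overlap, as for 24% of tested genes in that direction. The ratio of summed counts was 0.43 (95% counting interval 0.355 to 0.517), and the log2 fold change was −1.23 ± 0.48 (SE, n = 2 per group). Its adjusted p was 0.662 (unadjusted 0.0271) in the edgeR fit whose spread is shared by all 8 libraries, where 0.0488% of 12303 genes were called lower and 0.236% higher. The value moved between −1.37 and −1.11 with each library left out in turn, with adjusted p from 0.23 to 1. Fitted on the 4 inducible libraries alone it was −1.22 ± 0.22 with an adjusted p of 0.000234, in a fit that called 2.8% of 11991 genes lower. Without a filter on low counts it was −1.23 with an adjusted p of 0.00971, where 0.49% of 18159 genes were called lower. DESeq2's Wald test gave an adjusted p of 0.337. The size of the difference was thus alike across these settings and the call was not.

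**Figure D2:**
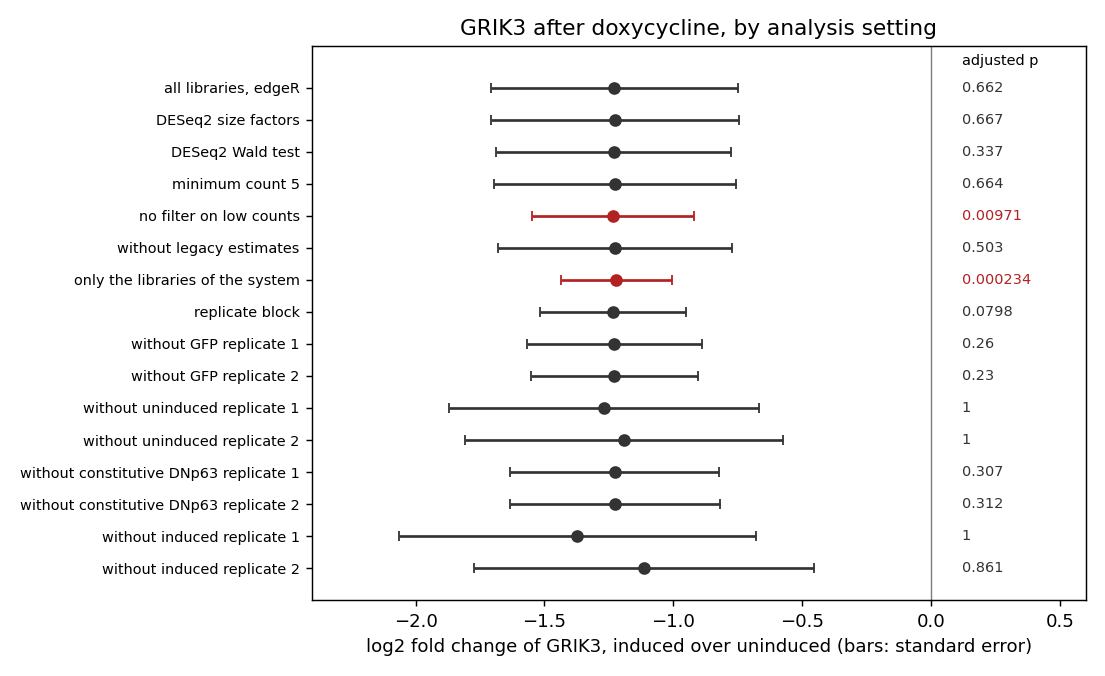
Log2 fold change of GRIK3 in induced against uninduced cells (x axis) under each analysis setting (y axis); points are estimates, bars are standard errors, and the adjusted p stands at the right, in red below 0.05. All estimates lie between −1.37 and −1.11, and the adjusted p is below 0.05 in 2 of the settings, 0.00971 without a filter and 0.000234 with the libraries of the system alone.

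The remaining kainate receptor genes were near the limit of detection. GRIK1 had 8 counts, all in constitutive DNp63 replicate 1 (2.29 CPM), and 0 in the other 7 libraries, so that the group rests on 1 library. Its antisense genes GRIK1-AS1 and GRIK1-AS2 had 0 counts everywhere. The gene body of GRIK1 overlaps that of BACH1 on the opposite strand, and GRIK5 likewise overlaps ZNF574. Whether counting used strand is not known here, and overlap of exons was not looked at. Their few counts may thus include reads of these neighbours, which was not tested. GRIK2 had 1 and 2 counts with GFP, 3 and 1 with constitutive DNp63, 0 and 1 induced and 0 uninduced. GRIK5, an obligate partner subunit, had 2 and 0 counts with GFP, 0 and 8 uninduced, 3 and 1 with constitutive DNp63 and 0 and 1 induced. GRIK4, the other obligate partner, had 1 count in GFP replicate 2 and 1 in induced replicate 2. Of the 9 genes, 8 had a count somewhere, 6 had 10 counts or fewer in all, and 2 had enough for testing, GRIA1 only through the constitutive DNp63 group where it is high.

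Per kilobase of exon, counted on GENCODE 29 gene models of GRCh38 and not on the annotation behind the counts, the summed level of the 9 genes was led by GRIK3 in 3 groups and by GRIA1 in the constitutive DNp63 group. GRIK3 made up 97.1% and 96.4% of that level with GFP, 99.0% and 94.3% uninduced, and 100% and 80.1% induced. With constitutive DNp63 it made up 0.94% and 0%, and GRIA1 89.6% and 97.3%. The sum was 6.85 and 2.30 CPM per kilobase with GFP, 9.02 and 3.94 with constitutive DNp63, 2.67 and 2.96 uninduced and 1.26 and 1.31 induced. The sums of the GFP and constitutive DNp63 groups overlap, while within each vector the constitutive DNp63 library was the higher (9.02 against 6.85 and 3.94 against 2.30). That order depends on the division by length. In plain CPM the constitutive DNp63 library was slightly lower in replicate 1 (66.9 against 68.4 with GFP) and higher in replicate 2 (30.1 against 23.1). Per kilobase, GRIA1 with constitutive DNp63 was at 8.08 and 3.84, and GRIK3 with GFP at 6.65 and 2.22, so the values overlap. The other 7 genes together had 3 and 3 counts with GFP, 15 and 4 with constitutive DNp63, 0 and 8 uninduced and 0 and 5 induced. Induced replicate 2 had counts for 7 of the 9 genes and induced replicate 1 for GRIK3 alone, although replicate 1 was the deeper library.

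**Figure D3:**
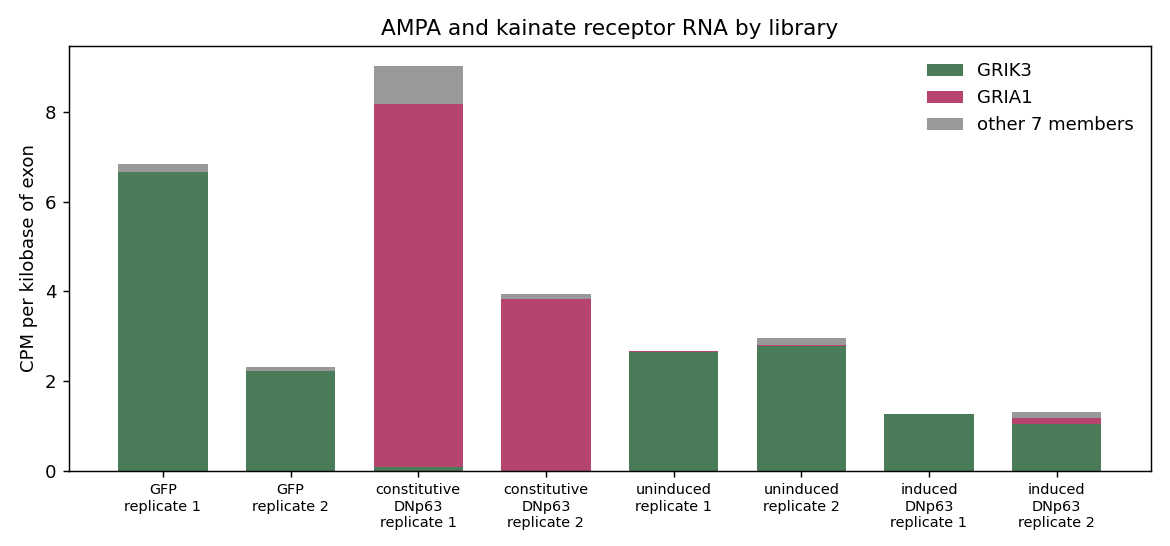
Summed level of the 9 receptor genes in CPM per kilobase of exon (y axis) in each of the 8 libraries (x axis), split into GRIK3, GRIA1 and the other 7 genes. GRIK3 makes up 80.1% to 100% of the bars of the GFP, uninduced and induced libraries, and GRIA1 makes up 89.6% and 97.3% of the bars of the constitutive DNp63 libraries.

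The genes whose log2 CPM followed GRIA1 most closely over the 8 libraries, among 11735 tested genes, were LCN2 (Pearson r = 0.992), a secreted lipocalin that binds siderophores, the small heat shock gene HSPB3 (0.992), the keratin gene KRT6C (0.988), the noncoding RNA gene IRAIN (0.986), which is antisense to IGF1R, and TBC1D20 (0.986), a Rab GTPase activator. HSPB3 was at 20.6 and 9.89 CPM with constitutive DNp63, at 0.197 CPM in induced replicate 2 and at 0 in the other 5 libraries. LCN2 reached only 3.71 and 2.52 CPM with constitutive DNp63 and KRT6C 5.14 and 1.94 CPM. IRAIN was at 19.4 and 14.4 CPM there, against 2.22 and 1.27 CPM with GFP. TBC1D20 was at 74.9 and 66.3 CPM, against 35.1 and 40.9 CPM with GFP. The reads of KRT6C can be divided among near-identical keratin genes. The genes closest to GRIK3 were TRIM13 (0.987), a ubiquitin ligase, the methionine salvage enzyme MRI1 (0.98), the cohesin subunit RAD21 (0.978), the replication protein MCMBP (0.978) and the motor neuron homeobox gene MNX1 (0.977). MNX1 stood at 99.0 and 59.9 CPM with GFP, 74.3 and 64.7 uninduced, 53.6 and 48.4 induced and 33.7 and 23.9 with constitutive DNp63. Its log2 fold change with constitutive DNp63, −1.46, was the largest of these genes. The others had −0.78 (TRIM13), −0.33 (MRI1), −0.79 (RAD21) and −0.35 (MCMBP). A high r thus did not mean a change of the size seen in GRIK3. The 8 points of each correlation share their groups and library depth, so these values describe likeness only.

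SOX2 and POU3F2 fell with constitutive DNp63 and were lower without passing the test after induction. SOX2 had a log2 fold change of −2.27 ± 0.30 with constitutive DNp63 (adjusted p = 0.00125) and −0.85 ± 0.28 after induction (0.464). POU3F2 had −3.34 ± 0.58 (0.00589) and −0.85 ± 0.50 (0.945). In GFP replicates 1 and 2, POU3F2 was at 41.4 and 119.9 CPM while GRIK3 was at 67.2 and 22.4 CPM, so the difference between those libraries had opposite directions in the 2 genes. With the inducible libraries alone both fell, SOX2 by 0.85 (adjusted p = 5.65e-07) and POU3F2 by 0.83 (0.00124) on the log2 scale.

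Genes that work with these receptors were listed by function. Of 22 auxiliary and biogenesis proteins, 14 had counts and 9 were tested. None was called by edgeR or DESeq2 in the constitutive comparison, with 2 at an unadjusted p below 0.05 in edgeR and 0 in DESeq2, against 8.16% of all tested genes called in either direction. ABHD6, a hydrolase that binds AMPA receptor subunits, had 0.78 ± 0.33 (adjusted p = 0.187), PORCN, an acyltransferase found with AMPA receptors, −0.62 ± 0.28 (0.217) and OLFM2, an olfactomedin, 1.68 ± 0.83 (0.256). After induction none was called either, with 0 at an unadjusted p below 0.05 in both tools, and ABHD6 and PORCN had 0.60 ± 0.32 (0.922) and 0.41 ± 0.25 (0.945). The list medians were 0.29 and −0.07, beside 0.01 and 0.00 for all tested genes. NETO2, the kainate receptor partner, stayed measurable in every library, at 33.3 and 48.3 CPM with GFP, 47.1 and 44.9 uninduced, 56.0 and 45.0 with constitutive DNp63 and 51.3 and 40.3 induced. The groups overlap for NETO2 in both systems. Its relative NETO1 had no count anywhere, and the TARP gene CACNG4 was at 20.3 and 8.05 CPM with GFP and 24.0 and 12.8 CPM with constitutive DNp63, and at 23.3 and 20.5 CPM uninduced and 12.5 and 17.3 CPM induced. CACNG4 thus overlapped in the constitutive system and was lower in both induced libraries, without being called (−0.56 ± 0.41, adjusted p = 0.961). NETO2, NETO1 and CACNG4 were chosen after their values were seen.

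Of the 9 NMDA and delta receptor genes only GRIN1, the obligate NMDA subunit, was tested. It had 8 and 6 counts with GFP, 8 and 11 with constitutive DNp63, 12 and 12 uninduced and 0 and 5 induced. Its log2 fold change was 0.14 ± 0.94 (adjusted p = 0.953) with constitutive DNp63 and −2.001 ± 1.06 (0.922) after induction. Of the 8 metabotropic receptors only GRM8 was tested, and it rose with constitutive DNp63 by 3.29 ± 0.88 on the log2 scale (adjusted p = 0.0455, where 4.17% of tested genes were called higher). It had 0 and 5 counts with GFP, 9 and 52 with constitutive DNp63, 14 and 38 uninduced and 47 and 32 induced, so the constitutive DNp63 libraries lie on both sides of each inducible group in CPM (2.57 and 10.1, against 2.82 and 3.69 uninduced). The GRM8 call was lost in 7 of 8 leave-outs (adjusted p 0.0793 to 0.229), all but that of constitutive DNp63 replicate 1, and its value ran from 1.95 without constitutive DNp63 replicate 2 to 8.21 without GFP replicate 2. After induction GRM8 had 0.87 ± 0.64 (0.968).

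Of 28 postsynaptic scaffold and trafficking genes, 21 were tested and 1 was called with constitutive DNp63, where 3.99% of tested genes were called lower. HOMER2, a scaffold of metabotropic receptors, fell by 0.92 on the log2 scale (SE 0.22, adjusted p = 0.0306), from 260 and 395 CPM with GFP to 166 and 182 CPM. That call was lost in 6 of 8 leave-outs (0.0637 to 0.156), all but those of GFP replicate 1 and constitutive DNp63 replicate 2. SHANK3, a master scaffold of excitatory synapses, had 1.34 ± 0.38 (0.0578, and 0.0327 with a term for the replicate number, which in this system is the vector). Neither DESeq2 nor the fit on the GFP and constitutive DNp63 libraries alone called SHANK3, and its value ran from 0.99 to 1.69 over the leave-outs. GRIP2, which binds AMPA receptor tails, had 1 count in the GFP libraries together and 24 in the constitutive DNp63 libraries, a ratio of 20.6 (95% counting interval 3.36 to 847) and an adjusted p of 0.102. After induction none of the 21 was called, with 1 at an unadjusted p below 0.05 in edgeR, HOMER3 (0.65 ± 0.26, adjusted p = 0.704, and 0.0342 with the inducible libraries alone), 1 in DESeq2 and 0 called by DESeq2, where 0.284% of all tested genes were called by edgeR. GRIP2 had 2 and 10 counts induced against 1 and 1 uninduced, a ratio of 6.94 (1.55 to 63.9; adjusted p = 0.856). The list medians were 0.06 and 0.02.

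Of 23 secreted and adhesive organisers of glutamate synapses, 8 were tested, 2 fell with constitutive DNp63 (3.99% of all tested genes did) and 6 did not pass the test. NPTX1, a secreted pentraxin that clusters AMPA receptors, went from 17.4 and 55.3 CPM with GFP to 0.571 and 3.10 CPM (−4.19 ± 0.64 on the log2 scale, adjusted p = 0.00326). It was at 32.6 and 23.3 CPM uninduced and 8.40 and 8.85 CPM induced, −1.69 ± 0.52 with an adjusted p of 0.382. Both induced libraries were thus below both uninduced ones in NPTX1, as in GRIK3 and in 24% of tested genes. Like GRIK3, NPTX1 was called with the inducible libraries alone (1.04e-05) and without a filter (6.01e-05), and also with a term for the replicate number (0.0125). NRXN3, a presynaptic neurexin, fell from 58.0 and 65.6 CPM to 18.0 and 16.5 CPM (−1.85 ± 0.22, adjusted p = 0.00068). Both calls held with each library left out. NPTXR, the receptor of pentraxins, had 1.86 ± 0.63 (0.0985, and 0.0499 with that term). Neither DESeq2 nor the fit on the GFP and constitutive DNp63 libraries alone called NPTXR, and its value ran from 1.16 to 2.70 over the leave-outs. After induction none of the 8 was called by edgeR or DESeq2, with NPTX1 alone at an unadjusted p below 0.05 in edgeR and 1 in DESeq2, and NLGN1, a postsynaptic neuroligin, had −1.13 ± 0.64 (0.927). The list medians were −0.35 and −0.23.

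Of 18 genes of glutamate transport and metabolism, 11 were tested, 1 rose and 1 fell with constitutive DNp63, beside 4.17% and 3.99% of all tested genes. SLC1A5, a neutral amino acid transporter that takes up glutamine, went from 2384 and 1092 CPM with GFP to 3740 and 4809 CPM (1.30 ± 0.30, adjusted p = 0.0257), a call lost without GFP replicate 2 (where the value was 0.83) or induced replicate 1 or 2 (0.0632 to 0.0697). It was at 1137 and 1033 CPM uninduced and 2204 and 2213 CPM induced (1.03 ± 0.30, adjusted p = 0.346), called with the inducible libraries alone (5.92e-10) and without GFP replicate 1 (0.0324) or 2 (0.0385). SLC1A3, a glutamate uptake carrier, went from 25.5 and 25.2 CPM to 13.4 and 6.01 CPM (−1.41 ± 0.36, 0.0392), a call lost in 7 of 8 leave-outs (0.0742 to 0.127), all but that of constitutive DNp63 replicate 1, with −0.91 without constitutive DNp63 replicate 2. GLUL, glutamine synthetase, had 0.69 ± 0.20 (0.0588), and was called by DESeq2 (0.0261). After induction 3 of the 11 had an unadjusted p below 0.05 in edgeR, 2 in DESeq2 and none was called by either tool, and the glutaminase gene GLS2 had 0.54 ± 0.22 (0.707, and 0.0205 with the inducible libraries alone). The list medians were 0.36 and 0.12. ADARB1, the enzyme that edits GRIA2 transcripts, had 0.74 ± 0.33 (0.211) and −0.43 ± 0.31 (0.96), and ADAR 0.11 ± 0.18 (0.777) and −0.11 ± 0.18 (0.995). With the GFP and constitutive DNp63 libraries alone, NPTX1 and NRXN3 kept their calls, and GRM8 (0.16), HOMER2 (0.191), SLC1A5 (0.153) and SLC1A3 (0.175) did not. None of the genes in these partner lists was called for a difference between the systems by edgeR (9 at an unadjusted p below 0.05), where 0.545% of tested genes were, while DESeq2 called NPTX1 and NRXN3.

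**Figure D4:**
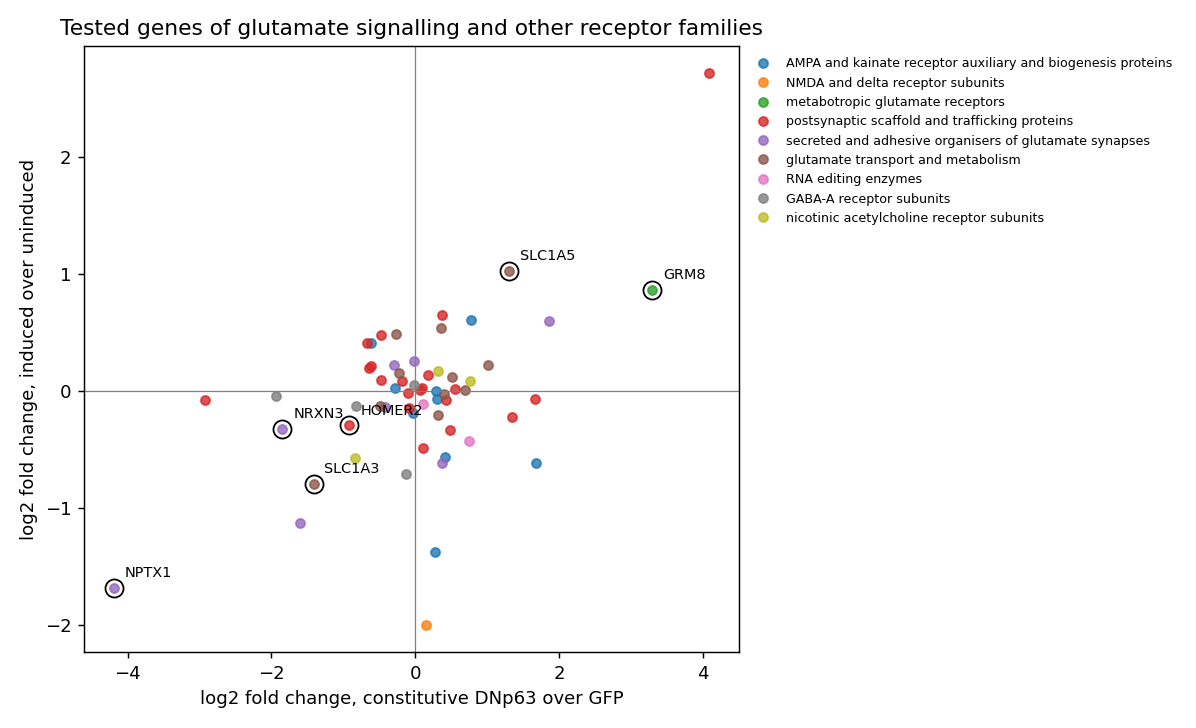
Log2 fold change with constitutive DNp63 against GFP (x axis) and with induced against uninduced cells (y axis) for the tested genes of the partner lists and of 2 other receptor families; each point is a gene, coloured by list, and rings mark genes called in the constitutive comparison. The 6 ringed genes are NPTX1, NRXN3, HOMER2 and SLC1A3, which fell, and GRM8 and SLC1A5, which rose; none of the points was called in the induced comparison.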

How the data were processed

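RNA-seq of polyA-selected RNA gave raw read counts per gene, as deposited by the authors in 1 table. The submitters' processing notes name TopHat2 2.1, SAMtools, HTSeq, DESeq2 and the build hg19. Neither the annotation version nor the strand setting is given in the sources used here. Per the labels' protocols, libraries came from a directional kit and were read from both ends.

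From these counts, genes were kept by filterByExpr with a minimum count of 10 (12303 of 26760), TMM factors scaled the library sizes, and edgeR 4.0.16 in R 4.3.3 (quasi-likelihood test with the legacy option) fitted 4 group means with a spread shared by all 8 libraries. P-values are two-sided and Benjamini-Hochberg adjusted over all tested genes, called below 0.05. Depth was 2758158 to 10372248 counts, so 3 counts equal 0.292 to 1.11 CPM per library. Ratios of summed counts carry 95% exact conditional intervals and need 20 counts over all libraries or are given where a partner gene has 1 to 3 counts in a group. Log2 CPM for likeness used a prior count of 2. The fit was tested on simulated data.

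The genes and lists were chosen with earlier results of these data known. Named genes were the 9 receptor genes, TP63, SOX2 and POU3F2, from each list up to 3 tested genes with the smallest p in the constitutive and 2 in the induced comparison, and for GRIA1 and GRIK3 the 5 most correlated genes. A listed gene is not reported here. In the constitutive system a replicate number is a vector shared by GFP and DNp63 cells. Alternatives were size factors and the Wald test of DESeq2 1.42.0, other filters, estimates without the legacy option, the libraries of 1 system, a term for the replicate number, and each library left out.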

Additional observations from a re-analysis of the deposited data

Results flagged for a closer look

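TP63 differed between the systems by the test of the difference itself, with −5.99 ± 0.58 (SE, 2 libraries in each group) for the induced minus the constitutive change on the log2 scale, and an adjusted p of 0.00378 from edgeR. Without induced replicate 1 or 2 no gene was called for this difference. TP63 rose in both systems, by 10.90 with constitutive and 4.91 with induced DNp63, as the design set, since the vectors carry DNp63. The controls differed as well, with means of 13.7 CPM uninduced and 1.32 CPM with GFP (3.23 on the log2 scale). The value of the difference includes that gap in the controls. It is thus not the gap between the DNp63 groups themselves, whose means were 2833 and 417 CPM.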

How the results depend on the processing

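Over all genes, 1004 were called with constitutive DNp63, 35 after induction and 67 for the difference between systems. Leaving out each library in turn gave 452 to 1438, 2 to 104 and 0 to 446 genes. The 0 came without induced replicate 1 or 2, where edgeR had 919 and 1303 genes at an unadjusted p below 0.05, and DESeq2 was not run on those sets. DESeq2's Wald test called 1221, 110 and 265 genes, and no filter on low counts 1791, 242 and 558. The libraries of a system alone gave 275 genes for the constitutive (69.8% of them higher, against 51.1%) and 771 for the induced comparison (56.4% higher, against 82.9%). GRIK3 after induction was called without a filter (−1.23, adjusted p = 0.00971) and with the inducible libraries alone (−1.22, adjusted p = 0.000234), and kept its direction in all settings tried.

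A replicate block, with the vector or replicate number as a term in each system, gave 1400, 87 and 270 genes, and GRIK3 had −1.23 with an adjusted p of 0.0798 there. Deviations of replicate 1 from the group mean correlated over 12303 genes at r = 0.22 between the GFP and constitutive DNp63 groups, where a number is a vector shared by both groups, and at −0.03 between the uninduced and induced groups, where it is only a number. NPTX1 after induction, SHANK3 (0.0327) and NPTXR (0.0499) with constitutive DNp63 were called under the block.

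Of 46 named fold changes, 682 values under alternatives held 623 with direction and call as reported, 27 that lost and 23 that gained a call, and 9 with the other sign, none of them called. These came from leaving out a library, named here with the lowest and highest log2 fold change over all such sets. After induction they were GRIA1, which is not read there, without induced replicate 2 (−2.80 to 2.69, the lowest there), GABRB2 without uninduced replicate 2 (−0.41 to 0.27, the highest there) or induced replicate 2 (0.082) and CHRNA7 without uninduced replicate 2 (−0.12 to 0.47, the lowest there) or induced replicate 2 (−0.08). With constitutive DNp63 they were GRIN1 without GFP replicate 2 (−0.43 to 0.78, the lowest there), ADAR without GFP replicate 1 (−0.022 to 0.24, the lowest there), GABRE without GFP replicate 2 (−0.29 to 0.091, the highest there) and CHRNA7 without DNp63 replicate 2 (−0.38 to 0.74, the lowest there). The cause was not tested. The ratio of GRIA1 to the floor with constitutive DNp63, 105.0-fold, became 66.7-fold without GFP replicate 1 and 38.3-fold without GFP replicate 2, since the same floor then stands over fewer counts. Ratios are not given for the other 7 receptor genes, which have too few counts, and depth limits any statement on them.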

Other observations

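Other ligand-gated receptor families were measured alongside. Of 15 subunits of GABA-A receptors, the chloride channels of inhibitory synapses, 10 had counts and 4 were tested, and none was called with constitutive DNp63 (edgeR had 1 at an unadjusted p below 0.05 and DESeq2 0) or after induction (0 in both tools), where 8.16% and 0.284% of all tested genes were called. GABRQ had 3 and 2 counts with constitutive DNp63 against 7 and 10 with GFP, a log2 fold change of −1.94 ± 0.79 (adjusted p = 0.171). GABRB2 had −0.82 ± 0.40 (0.248) and GABRE −0.12 ± 0.57 (0.928). After induction GABRE had −0.71 ± 0.60 (0.979) and GABRB2 −0.13 ± 0.36 (0.995).

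Of 16 nicotinic acetylcholine receptor subunits, 11 had counts and 3 were tested, and none was called in either comparison or had an unadjusted p below 0.05 in edgeR or DESeq2. With 4 and 3 genes tested, no call is also what those shares over all genes give. CHRNA5, a subunit gene of the nicotinic cluster, had −0.84 ± 0.43 (adjusted p = 0.281) with constitutive DNp63 and −0.58 ± 0.41 (0.959) after induction. CHRNB1 had 0.77 ± 0.60 (0.505) with constitutive DNp63, and CHRNA7 had 0.32 ± 0.47 (0.757) and 0.17 ± 0.47 (0.995).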
